A study of Mus musculus with 6 samples.

Results

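Short internal exons, here the aligned blocks of 3 to 30 bp that lay inside a transcript, were described in long-read transcripts of single cells from the mouse brain. They were taken from transcripts that were assigned to 1 gene and had 3 or more aligned blocks. Blocks of 1 gene whose edges lay within 1 bp of each other were counted as 1 site. There were 422 such sites in 348 genes, out of 25923 sites of internal blocks of any length, and together they were found in 1099 blocks. Because the sites were selected on the presence and the length of the block in these same transcripts, their number, their lengths and their inclusion are given as a description, without a test.

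An exon is normally recognised through the splice sites at both of its ends. In a very short exon these sites lie so close together that recognition depends on sequences in the neighbouring introns, and many such exons, known as microexons, are alternative. They are best known from neurons, where the splicing factor Srrm4 promotes their inclusion, and they often add a few residues to the surface of a protein without changing the reading frame.

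The data were transcripts of 6 single cells of the mouse brain (strain CD-1, stage given as Embryo in the labels of all 6), captured on the C1 instrument and sequenced with the PacBio long-read technology, 2 cells each of 3 types. The first type is named in the labels as a progenitor of oligodendrocytes, and in the study as a vascular and leptomeningeal cell (VLMC), a fibroblast-like cell of vessels and meninges. Of 10 markers of VLMCs, 9 were found in the first of these cells and 10 in the second, of 10 oligodendrocyte markers none, and of 10 progenitor markers 1, so they are called VLMC-1 and VLMC-2 here. Oligo1 and Oligo5 are oligodendrocytes, in the study an immature and a mature stage, and 9 or 10 of the oligodendrocyte markers were found in each of the 4 cells. Oligo5-2 also held 54 transcripts of 7 of 10 neuron markers, or 0.876% of its transcripts, against 0 in the other oligodendrocytes. No treatment or allele was compared, and neither the labels nor the study say which cells came from 1 animal. For this reason no test compares cells or cell types, and an interval given below is a Wilson 95% interval that covers counting error only.

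The short exons on which the description turns are given here in the sense of the transcript, from 5′ to 3′, as read from the GENCODE M21 transcripts (GRCm38, the same assembly as mm10). Capitals mark the exon and lower case the bases of the neighbouring exons. The 3 exons of Mog, which encodes myelin oligodendrocyte glycoprotein of the outer myelin surface, are shown because they made up the largest group of blocks, and are followed by exons that were skipped by other transcripts of the same gene.
Mog exon 4: agagGAAAACTTCGTGCAGAAGTAGagaa
Mog exon 5: gtagAGAATCTCCATCGGACTTTTGatcc
Mog exon 7: gcagGACAGTTTCTTGAAGAGCTAAgaaa
Sept7 exon 2: gcggcaccatggTAGCTcaaccgaagaac
Nfasc exon 24: aatgaagCTACTCCAACTGCAGcttacac
Spock3 exon 2: attccgagacGAAGTAGAGgatgattatt
Prom1 exon 25: cgaTGTTGAGACTGTGCCCATGAAAAAttt
Cacnb4 exon 7: aacagCAAAACAGAAGCAGAAAGTGacgga
Picalm exon 18: atgAATGGCATGCATTTTCCACAATACgcg
Ptprd exon 17: ttataaaagTAAACCTGACAGgaagagggc
The next 2 sequences are shown as a pair of related genes, Tmeff2 and Tmeff1, with an exon of the same length at the same place.
Tmeff2 exon 4: gATACAGGATCGGGATCTGGAGATGGAGt
Tmeff1 exon 4: gATAACGGCTCTGGATCTGGAGAAGGAGa
The last 2 are the shortest annotated exon found and the short exon of the noncoding RNA Gas5.
Cyth2 exon 9: ctcctaaagctggGAGcccggcccctccc
Gas5 exon 5: gGTACAAATAATGGTTTGAATAAAGAAAGg

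Of the 422 sites, 209 lay at an annotated exon, with both edges within 1 bp of it (49.5%, interval 44.8 to 54.3%). They were in 189 genes and held 861 of the blocks. As annotated, 200 of them were coding, 4 held both coding and untranslated sequence, 3 lay in a 5′ UTR and 2 in noncoding RNAs. The other 213 sites held 238 blocks, and only 23 of these sites were seen in 2 or more transcripts. The 28 sites with 5 or more transcripts were all annotated exons. One edge was annotated for 95 sites and none for 105, while 10 lay inside a longer exon and 3 were in genes that were not matched to the annotation.

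**Figure D1:**
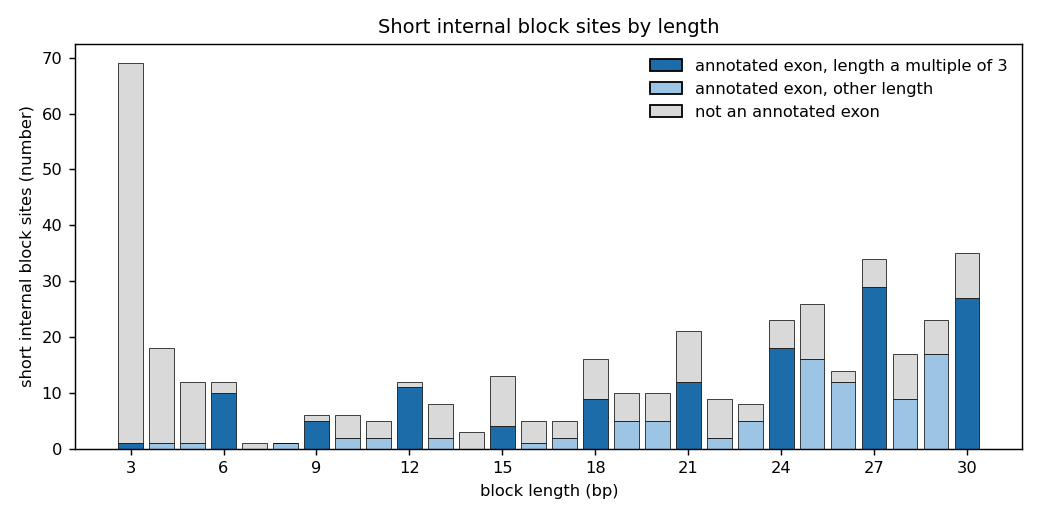
Number of short internal block sites (vertical axis) at each block length from 3 to 30 bp (horizontal axis), split into annotated exons whose length is or is not a multiple of 3 and sites that are not annotated exons. The 69 sites of 3 bp hold 1 annotated exon, while the columns of 27 and 30 bp hold 29 and 27.

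Sites of 3 to 5 bp were mostly not annotated exons, as the plot of sites by length shows. At greater lengths the classes were mixed, and 115 of the 213 unannotated sites were longer than 6 bp. Of 69 sites of 3 bp, only 1 was an annotated exon, the GAG exon of Cyth2, which encodes an exchange factor for ARF GTPases. It was found in 3 of 4 spanning transcripts. From 3 to 6 bp, 13 of 111 sites were annotated. The 6-bp exons were mostly annotated, 10 of 12, among them those of Nsfl1c, a cofactor of the ATPase p97 (3 of 4 transcripts), and Phb2, a prohibitin of the inner mitochondrial membrane (3 of 3 transcripts). For 77 of the 213 unannotated sites, and for 50 of the 69 sites of 3 bp, other transcripts of the gene had no such block but a neighbouring block that was longer by the same length, within 2 bp. At sites of 3 bp this tolerance is nearly as wide as the block, so small shifts of a junction count as well. At the 5-bp site of Ptn, a heparin-binding growth factor, 2 transcripts held the block and 106 held the longer neighbour. How many of the unannotated blocks are bases of a neighbouring exon that were aligned apart from it was not tested.

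Coding short exons had a length that was a multiple of 3 in 123 of 200 cases (61.5%, interval 54.6 to 68.0%). Longer annotated coding blocks of the same transcripts had such a length in 41.9% (interval 39.7 to 44.2%) at 31 to 60 bp, in 39.2% at 61 to 120 bp and in 38.3% above that, up to 200 bp. The interval of the short exons lay above those of all 3 longer classes. Among short coding exons the share was 77.5% (31 of 40) at 3 to 15 bp and 57.5% (92 of 160) at 16 to 30 bp, with intervals of 62.5 to 87.7% and 49.8 to 64.9% that overlapped. Among the 22 coding exons that were skipped by at least 1 transcript, 19 had a length that was a multiple of 3 (86.4%, interval 66.7 to 95.3%), against 16 of 27 with 5 or more spanning transcripts and no such skip (59.3%, interval 40.7 to 75.5%). The 3 exceptions among the skipped exons were those of Sept7 (5 bp), Cacnb4 (20 bp) and Nol7 (29 bp). Unlike the 27, the 22 skipped exons had no lower limit of spanning transcripts. Coding exons with under 5 spanning transcripts and no skip had such a length in 88 of 151 cases (58.3%, interval 50.3 to 65.8%). These shares were not tested against each other.

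The introns around short annotated exons had medians of 1345 bp before and 1055 bp after the exon, which lay within the range of the medians of the longer classes before the exon (1254 to 1463 bp) and below it after the exon (1095 to 1346 bp). The interquartile ranges of all classes overlapped widely. The median GC content of coding short exons was 44.4%, and that of the longer classes rose from 46.8 to 49.6%. In the annotation itself, 82 of 200 short coding exons (41.0%) were part of every GENCODE transcript of the gene that spanned them, against 59.1 to 63.9% in the longer classes.

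A transcript spans an exon here when it starts before the exon and ends after it. The 209 annotated short exons were spanned 1074 times, and in 861 of these cases the exon was present (80.2%). A large part of the 861 came from Mog, whose short exons gave 86, 83 and 79 of them. A transcript counts once for each exon it spans, so the cases are not independent. In 94 cases (8.75%) the exon was absent and the transcript joined the same neighbouring splice sites that other transcripts used around the exon, which is called a skip below. In 23 cases (2.14%) a neighbouring block was instead longer by the length of the exon within 2 bp, in 34 another gap was found, and in 62 a different block overlapped the place. Of 47 annotated short exons with 5 or more spanning transcripts, 16 were skipped at least once (34.0%, interval 22.2 to 48.3%), while this share was 7.57% at 31 to 60 bp, 2.97% at 61 to 120 bp and 1.81% above that, up to 200 bp.

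The cases with a longer neighbour were most frequent at the shortest exons. The tolerance of 2 bp bears on this, since a shift of a few bp at a junction counts at the shortest exons but not at 21 to 30 bp. The part of the tolerance in these values was not tested. Cases with a longer neighbour made up 16 of 94 transcripts with the exon or such a neighbour at 3 to 9 bp (17.0%, interval 10.8 to 25.9%), 5 of 124 at 10 to 20 bp (4.03%) and 2 of 666 at 21 to 30 bp (0.300%). The value at 3 to 9 bp rests largely on 1 exon, since the 5-bp exon of Sept7 gave 11 of the 16 cases. It also gave 46 of the 78 transcripts with the exon. At annotated exons of 31 to 60 bp there was 1 such case among 8796 spanning transcripts, and none at the longer exons. The bases of the reads were not analysed here. A transcript that carries the exon, but whose few bases were aligned to the neighbouring exon or left unaligned, therefore cannot be told apart from one that lacks it.

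A count that does not depend on which exons were found was made from the annotation. GENCODE M21 holds 878 coding internal exons of 3 to 30 bp in the genes of the table, and 354 of them were spanned by at least 1 transcript. The exon itself was seen for 199 of these 354 (56.2%, interval 51.0 to 61.3%), against 83.8% at 31 to 60 bp and 90.6% in both longer classes. Of 1558 transcripts that spanned these short exons, 817 held the exon (52.4%) and 345 skipped it (22.1%, interval 20.2 to 24.3%), joining annotated neighbouring splice sites. Skips made up 3.55%, 1.45% and 1.09% in the longer classes. Of the 345 skips, 82 were at a 3-bp exon of Spp1, a secreted phosphoprotein, which was never seen. Without it, skips made up 263 of 1476 cases (17.8%, interval 16.0 to 19.9%) and the exon was held in 55.4%. A transcript may count for more than 1 of several overlapping annotated exons, and for several exons of its gene. The short exons of Mog, which nearly all spanning transcripts held, were kept in these shares.

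**Figure D2:**
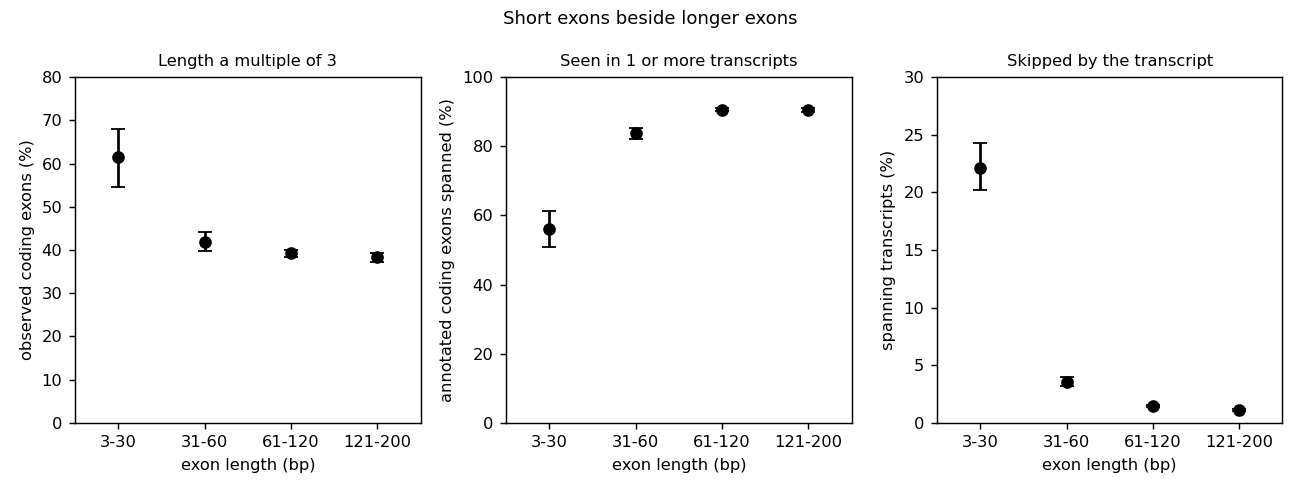
Share (vertical axes, %) of observed coding exons with a length that is a multiple of 3, of annotated coding exons that were seen among those spanned, and of spanning transcripts that skip the exon, for 4 classes of exon length (horizontal axes, bp). Points are shares of exons or transcripts pooled over the 6 cells and bars are Wilson 95% intervals. The class of 3 to 30 bp has 61.5%, 56.2% and 22.1%, and its intervals do not meet those of the longer classes.

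Mog held the most short exons, 3 coding exons of 21 bp each, at chr17:37015068-37015088, chr17:37014750-37014770 and chr17:37012063-37012083 on the minus strand, exons 4, 5 and 7 of 8. Exons 4 and 7 had the same base at 13 of 21 positions, exons 4 and 5 at 8 and exons 5 and 7 at 5. Exon 4 was held by 86 of 88 spanning transcripts (97.7%), exon 5 by 83 of 88 (94.3%) and exon 7 by 79 of 82 (96.3%). None of the 3 was skipped. The 2 transcripts without exon 4 and the 5 without exon 5 had another block over the place, such as a block of 25 bp at exon 4 and one of 19 bp at exon 5, and the 3 without exon 7 had another gap. By cell, exon 4 was in 44 of 44 transcripts of Oligo1-1, 1 of 2 of Oligo1-2, 8 of 9 of Oligo5-1 and 33 of 33 of Oligo5-2. No transcript of Mog was found in the VLMCs. Over all genes, 564 transcripts held 1 annotated short exon, 33 held 2 and 77 held 3.

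Sept7, a septin that forms filaments at the cell cortex, had the most frequent short exon after those of Mog, of 5 bp at chr9:25264203-25264207 on the plus strand. The exon was present in 46 of 78 spanning transcripts (59.0%, interval 47.9 to 69.2%). It was skipped in 19, replaced by a longer neighbour in 11, and 2 had another gap. In 9 of these 11 the block before it was 4 bp longer and in 2 it was 7 bp longer. With these 11 counted as holding the exon, the inclusion was 73.1%, and with skips alone counted as lacking it, 70.8%. The deepest cell for this gene, Oligo1-1, held it in 28 of 44 transcripts, and Oligo5-2 in 12 of 22. In the others it was held by 3 of 6 transcripts (Oligo5-1), 3 of 4 (VLMC-2) and 0 of 2 (Oligo1-2). The intervals of all these cells overlapped. The sequencing runs are not named in the labels and were told apart by the names of the reads. Their intervals did not overlap, and the part of the runs in the inclusion was not tested. Of 31 transcripts with a read in the earlier run, 25 held the exon (80.6%, interval 63.7 to 90.8%). Of 56 with a read in the later run, taken as the one enriched for long molecules, 28 held it (interval 37.3 to 62.7%). Skips were 2 of the 31 and 17 of the 56, and transcripts with reads in both runs count in each. A second exon of 5 bp is annotated at chr9:25265302-25265306, and none of 78 transcripts that spanned it held it, which allows a share of up to 3.85%. Of those, 17 joined the annotated exons on either side across it and 61 had another gap there. At the 3-bp exon of Spp1, 0 of 82 spanning transcripts, 50 in VLMC-1 and 32 in VLMC-2, held the exon, which allows a share of up to 3.66%. Both limits are for exons aligned as a block of their own. Whether so few bases would be aligned that way was not tested, so the limits do not show that the exons were absent.

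**Figure D3:**
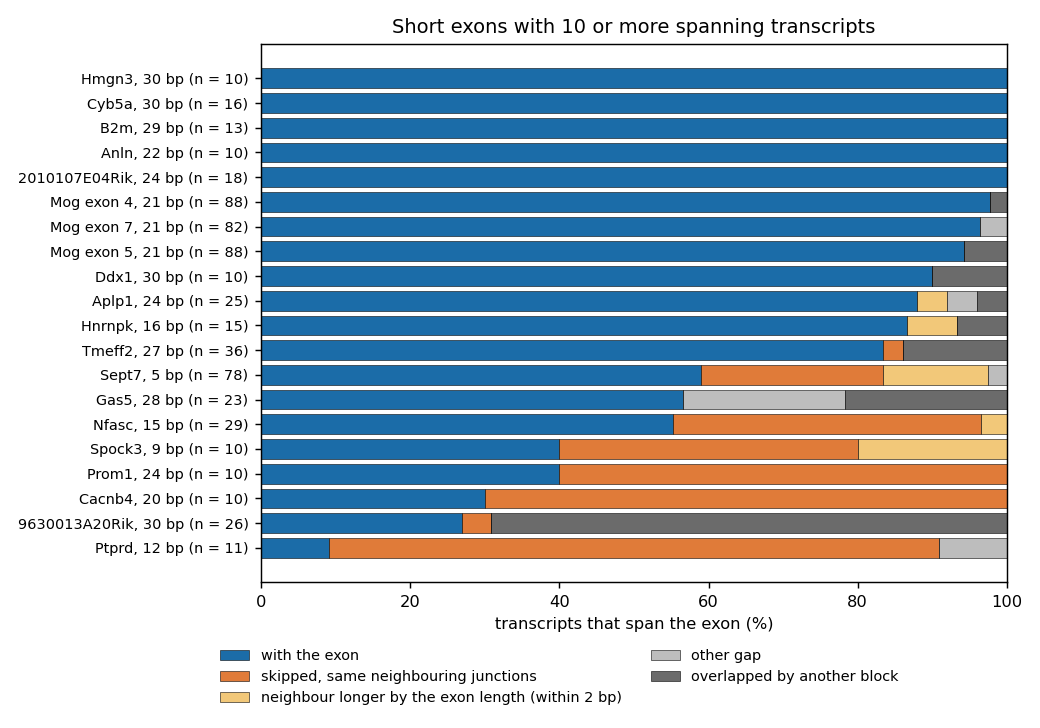
Share of spanning transcripts (horizontal axis, %, pooled over the 6 cells) that hold the exon, skip it, have a longer neighbouring block, another gap or an overlapping block, for the 20 annotated short exons with 10 or more spanning transcripts (n beside each name). The 5 exons at the top are held by every transcript, while the orange part, skips, takes 19 of 78 transcripts in Sept7, 12 of 29 in Nfasc, 6 of 10 in Prom1, 7 of 10 in Cacnb4 and 9 of 11 in Ptprd.

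Of 20 annotated short exons with 10 or more spanning transcripts, 5 were present in every one and 11 in 10 to 90% of them, as the plot of spanning transcripts shows. Nfasc encodes neurofascin, an adhesion protein of the junction between axon and myelin. Its 15-bp exon at chr1:132593351-132593365 on the minus strand, exon 24 of 27, was present in 16 of 29 transcripts (55.2%, interval 37.5 to 71.6%) and skipped in 12. It was in 9 of 18 transcripts of Oligo1-1, 5 of 9 of Oligo1-2 and the 1 transcript each of Oligo5-1 and Oligo5-2. Both forms were therefore present within both Oligo1 cells, although all 5 GENCODE transcripts that span the place include the exon. In the earlier run 5 of 11 transcripts held it, and in the later one 15 of 25.

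The exons described next had at most 10 spanning transcripts each. The 24-bp exon of Prom1, a membrane protein of cell protrusions, was present in 3 of 7 transcripts of Oligo1-1 and 1 of 3 of Oligo1-2, and all 6 transcripts without it were skips. The 20-bp exon of Cacnb4, a regulatory subunit of voltage-gated calcium channels, was present in 3 of 10 transcripts and skipped in 7, all in Oligo1-1. A second 20-bp exon of Cacnb4 is annotated at chr2:52467144-52467163 and was in 0 of the 10 transcripts that spanned it, which allows a share of up to 30%. The 24-bp exon of Picalm, an adaptor for clathrin coats, was in 3 of 7 transcripts of Oligo1-1 and 0 of 1 of Oligo1-2. In Oligo5-2 alone, the 9-bp exon of Spock3, a proteoglycan of the extracellular matrix, was present in 4 of 10 transcripts, skipped in 4 and replaced by a longer neighbour in 2. The 30-bp exon of Ppp3ca, the catalytic subunit of calcineurin, was in 3 of 3 transcripts of Oligo5-2, in 0 of 2 of Oligo1-1 and in 0 of 2 of VLMC-2. The part of the neuron markers of Oligo5-2 in the values of Spock3 and Ppp3ca was not tested.

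Vps29, a subunit of the retromer complex, showed both forms in a VLMC, where its 12-bp exon was in 2 of 3 transcripts of VLMC-2. It was in 0 of 1 of Oligo1-1 and 0 of 3 of Oligo5-2. Skips in 1 to 3 transcripts were also found at exons of Cltc, the clathrin heavy chain (4 with the exon and 1 without), Nol7, a nucleolar protein (3 and 3), Lgals8, a lectin (2 and 2), and Hnrnpc, an RNA-binding protein whose 26-bp exon lies in the 5′ UTR (2 and 2). With so few transcripts the intervals of these exons span most of the range, for example 15.0 to 85.0% for Lgals8.

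Skips were rare or not found at several frequent short exons. Tmeff2 and Tmeff1 encode related transmembrane proteins with follistatin-like and EGF-like domains, and each has a 27-bp exon 4 of 10. That of Tmeff2 was in 24 of 26 transcripts of Oligo1-1, 5 of 8 of Oligo1-2 and 1 of 2 of Oligo5-2, with 1 skip and 5 overlapping blocks among the 6 without it. Without Oligo1-1 it was in 6 of 10 transcripts, against 30 of 36 with all cells. That of Tmeff1 was in 4 of 5. The 24-bp exon of Aplp1, a relative of the amyloid precursor protein, was in 7 of 9 transcripts of Oligo1-1, 9 of 9 of Oligo1-2 and 6 of 7 of Oligo5-1, and none of the other transcripts skipped it. The 16-bp exon of Hnrnpk, an RNA-binding protein, was in 13 of 15.

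Short exons were held by every spanning transcript in B2m, the light chain of MHC class I (13 of 13, 12 of these in VLMC-2), 2010107E04Rik (18 of 18), Anln, an actin-binding protein (10 of 10, all in Oligo5-2), Uqcrh, a subunit of respiratory complex III (9 of 9 in 5 cells), and Mrpl33, a protein of the mitochondrial ribosome (8 of 8). In all, 16 of the 28 sites with 5 or more transcripts were never absent. The collagen chain Col4a5 had 2 exons of 9 bp in a row, exons 43 and 44 of 54, and both were in 3 of 4 transcripts of VLMC-2.

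**Figure D4:**
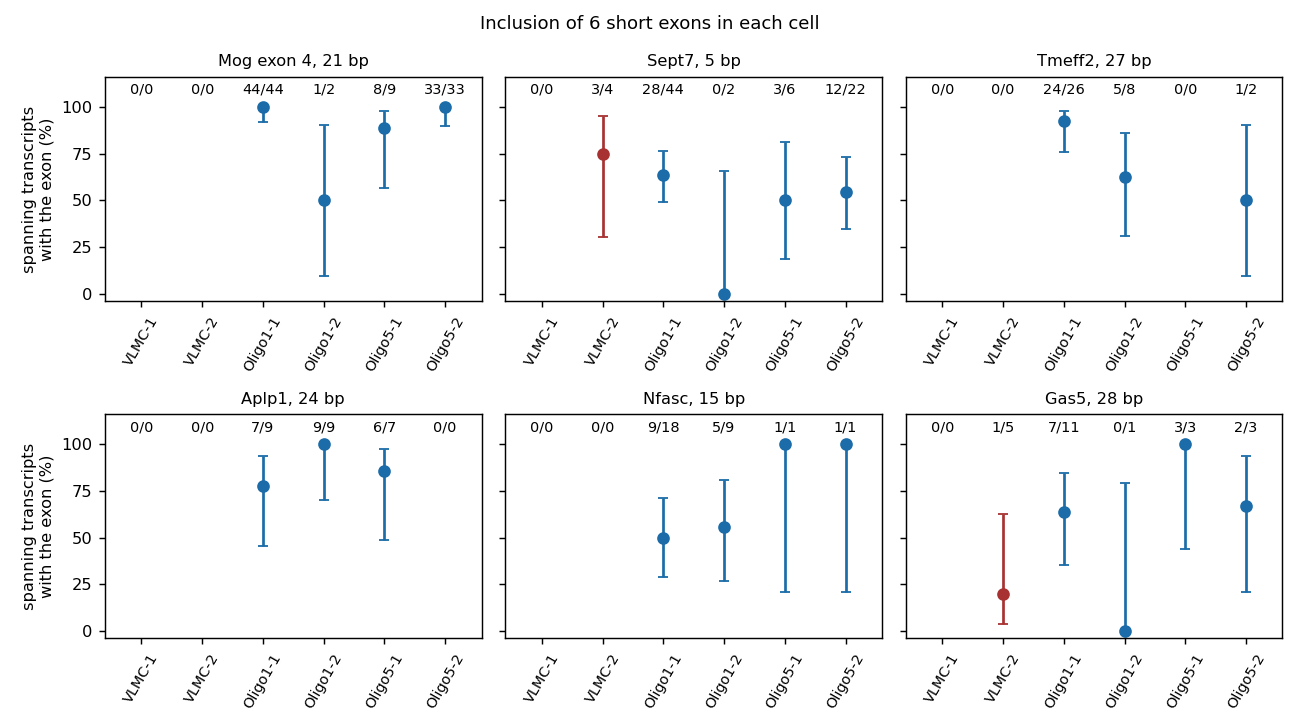
Share of spanning transcripts with the exon (vertical axis, %) in each of the 6 cells (horizontal axis) for short exons of Mog, Sept7, Tmeff2, Aplp1, Nfasc and Gas5, with VLMCs in red and oligodendrocytes in blue. Points are values of 1 cell, bars are Wilson 95% intervals, and the numbers above are transcripts with the exon and transcripts that span it. In Nfasc, 9 of 18 transcripts of Oligo1-1 and 5 of 9 of Oligo1-2 hold the exon.

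Of 50 genes with textbook microexons, 37 had transcripts, and 8 of these had 10 annotated short exons that were seen. Chosen from the annotation instead, 31 short exons in 14 of these genes were spanned, and 10 of the 31 were seen. The 31 exons were held by 31 of 136 spanning transcripts and skipped by 76. Over all annotated exons of 3 to 30 bp, coding or not, 208 of 423 spanned exons were seen (49.2%), and they were held in 859 of 1866 cases (46.0%) and skipped in 400 (21.4%). Besides Nfasc and Picalm, Ptprd, a receptor tyrosine phosphatase of synapses, held a 12-bp exon in 1 of 5 transcripts of Oligo5-2 and 0 of 6 of Oligo1-1, and a 9-bp exon in 2 of 2 of Oligo1-1. Apbb1, which binds the amyloid precursor protein, held its 6-bp exon in 1 of 3 transcripts of Oligo5-2 and 0 of 3 of Oligo1-1, and Ptk2, the focal adhesion kinase, its 9-bp exon in 1 of 3. The 24-bp exon of Mef2c, a transcription factor, was in 4 of 4 transcripts, all in Oligo5-2. This is the cell with neuron markers, and their part in the values of Ptprd, Apbb1 and Mef2c was not tested. Annotated exons of 15 bp in Ergic3, a protein of the early secretory pathway, and of 27 bp in Ank3, which encodes ankyrin G, were skipped in 9 of 10 and 5 of 5 spanning transcripts and never seen.

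Of 17 splicing regulators known for short exons, 12 had transcripts, 130 in all, and none of them had a short internal block. Since 348 of all 6357 genes had one, a count of 0 among 12 genes says little about them. Srrm4 and Srrm3, which promote microexons in neurons, were not found. Qk, the RNA-binding protein quaking, had 48 transcripts and Mbnl2, a muscleblind protein, 42. The zero counts of Srrm4 and Srrm3 allow shares of up to 0.130% of the transcripts in VLMC-1, the least covered cell, and 0.0264% in Oligo1-1, the most covered one.

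All 22 myelin genes had transcripts, 4781 in all, and 8 of them had 22 short block sites. Of these sites 4 were annotated exons, the 3 of Mog and that of Nfasc. The other 18 were seen in at most 2 transcripts each. In the whole table, 348 of 6357 genes had a short site, and 209 of the 422 sites were annotated exons. Enpp2 is an exoenzyme that makes lysophosphatidic acid. In its transcripts a 4-bp block was seen in 1 of 102, and 62 others had a longer neighbour.

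Among transcripts with 3 or more blocks, the share that held an annotated short exon was 2.80% (30 of 1073) in VLMC-1 and 3.02% in VLMC-2. It was 4.52% and 4.02% in the Oligo1 cells, and 2.48% and 4.31% in the Oligo5 cells. The interval of Oligo1-2 (3.17 to 5.08%) overlapped those of VLMC-1 (1.97 to 3.96%) and VLMC-2 (2.43 to 3.75%), while that of Oligo1-1 (4.04 to 5.06%) lay above both. Without Mog and Sept7 these values were, in the same order, 2.80, 2.91, 3.47, 3.99, 1.85 and 3.13%. The lowest and highest of the 6 were then both in oligodendrocytes, in Oligo5-1 and Oligo1-2, with intervals of 1.34 to 2.55% and 3.14 to 5.05%. The cells held 2309 to 11371 transcripts, and the median span of those with 3 or more blocks was 7525 bp in Oligo5-1 to 15054 bp in Oligo1-1. The part of depth and span in these shares was not tested. Of the 209 annotated short exons, 151 were seen in 1 cell, 35 in 2, 11 in 3, 10 in 4 and 2 in 5. There were 25 exons in both VLMCs and oligodendrocytes, 31 in VLMCs alone and 153 in oligodendrocytes alone, but the cells also differ in their genes and depth, so these counts are no measure of splicing.

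For the coding short exons chosen from the annotation, the share of spanning cases that held the exon was 27 of 100 in VLMC-1 (interval 19.3 to 36.4%), 71 of 163 in VLMC-2 (43.6%) and 50.4 to 59.9% in the 4 oligodendrocytes. The low values of the VLMCs rested on Spp1, of which the oligodendrocytes had no spanning transcript. Without Spp1 the values were 54.0% (27 of 50) in VLMC-1 and 54.2% (71 of 131) in VLMC-2, against 53.8 and 50.4% in the Oligo1 cells and 57.7 and 59.9% in the Oligo5 cells. The intervals of all 6 cells then overlapped, the widest being that of VLMC-1 (40.4 to 67.0%). The exons behind these values differ between cells. The 3 short exons of Mog, spanned only in the oligodendrocytes, were kept in them. They were held in 94.3 to 97.7% of the cases, for example in 44 of 44 at exon 4 in Oligo1-1. Values without both Spp1 and Mog were not computed, so no likeness of the cells is read from these shares.

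Whether a short exon and its neighbour were included together in the same molecule is not used by the choice of sites and was tested with a two-sided Fisher's exact test on transcripts. Over the whole table, 46 pairs of neighbouring alternative blocks with 5 or more transcripts with and without each block could be tested, and 24 passed an adjusted p of 0.05 (52.2%, Benjamini-Hochberg over the 46 pairs). This background depended on how molecules were counted: it was 10 of 35 pairs with near-identical UMIs merged, 1 of 4 with UMIs read 2 or more times, and 9 of 16 without Oligo1-1. A short exon was part of 3 of these pairs, and 1 of the 3 passed. This was the 28-bp exon of Gas5, a noncoding RNA that hosts small nucleolar RNAs, at chr1:161037288-161037315 on the plus strand. The exon was in 7 of 11 transcripts of Oligo1-1, in 1 of 5 of VLMC-2, in all 3 of Oligo5-1, in 2 of 3 of Oligo5-2 and in 0 of 1 of Oligo1-2. None of the 10 transcripts without it was a skip between the same splice sites: 5 had another gap and 5 another block over the place. It was found with the 41-bp block before it in 7 transcripts, without it in 6, and 10 had neither, while none had the 41-bp block alone (log2 odds ratio 4.60 after adding 0.5 to the 4 counts, Fisher's exact p = 0.00749, adjusted p = 0.0174). With the 43-bp block after it, 12 transcripts had both, 1 the 28-bp exon alone, 5 the 43-bp block alone and 5 neither (Fisher's exact p = 0.0515, adjusted p = 0.0948). The 30-bp exon of the noncoding RNA 9630013A20Rik and the 151-bp block next to it had both in 5 transcripts, 1 alone in 2 and 14, and neither in 5 (Fisher's exact p = 1.00).

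Of the 10 Gas5 transcripts with neither the 41-bp nor the 28-bp block, 4 had 1 block that covered both places and 5 had 1 gap over both. The test therefore compares transcripts with these blocks mostly with transcripts of another structure over the whole stretch, and it does not separate this from 2 exons that are each included or skipped. The link also rested on several cells. Without VLMC-2 the adjusted p of Fisher's exact test was 0.103, without Oligo5-1 0.0722, and with the reads of the earlier run alone 0.0952. Without Oligo1-1, or with the later run alone, too few transcripts were left for the test. The pair of the 28-bp and the 43-bp block passed only without Oligo1-2 (adjusted p = 0.0473, Fisher's exact test). In no single cell did the exact test of either Gas5 pair give a p under 0.109, with at most 11 transcripts in a cell. The test speaks of the molecules of these 6 cells and not of cell types.

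The upper limit of 30 bp falls inside a run of exons. Just inside it, at 28 to 30 bp, the sites with the most transcripts were those of Cyb5a (16 of 16 spanning), B2m (13 of 13), Gas5 (13 of 23), Hmgn3 (10 of 10) and Ddx1 (9 of 10). Just outside it, at 31 to 33 bp, sites with many transcripts were those of Trf (322 of 332), Enpp2 (88 of 90), Mbp (84 of 94) and a second exon of Gas5 of 32 bp (22 of 22). Mbp, the basic protein of myelin, and Trf, the iron carrier transferrin, are thus among the genes whose short exons lay a few bases beyond the limit.

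Among the sites that were not annotated exons, those with the most transcripts were a block of 22 bp in Mia3, a receptor for the export of collagen from the endoplasmic reticulum, and one of 20 bp in Skp2, a subunit of a ubiquitin ligase. The block of Mia3, at chr1:183339366-183339387, had no annotated edge and was in 3 of 3 spanning transcripts, from 3 cells and with 5 reads. The block of Skp2 had 1 annotated edge and was in 3 of 3 transcripts of 1 cell. The other recurrent sites had 2 transcripts each. In Plat, the tissue plasminogen activator, blocks of 25 and 26 bp were each in 2 transcripts of 1 cell, while 28 others had another block there. In Itm2b, a membrane protein that is cut to release a peptide, a 3-bp block was in 2 of 71 transcripts, from 2 cells, and the other 69 joined the same splice sites without it. Each of these sites rests on few molecules.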

How the data were processed

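The deposited table holds, for each transcript (reads of 1 cell and gene with the same UMI), counts of the reads that the authors merged and the positions of its aligned blocks on mm10, where starts count from 0. Before deposit the authors cut chained molecules apart, required the cell barcode on either end, trimmed poly-A tails, kept unique alignments by GMAP (GSNAP in the submitters' processing notes) and joined blocks with a small gap between them. The shortest gap left was 41 bp, so 2 exons with a shorter gap would appear as 1 block. Counts were not normalized. The labels do not give the run of a read, so it was inferred from the read name. The later reads were taken as the run that the study enriched for long molecules. Transcripts read only there had a median aligned length of 1926 bp, against 597 bp for those read only in the earlier run. There were 36303 transcripts of 6357 genes that were assigned to 1 gene, with 71270 reads, and 356 assigned to several genes were left out. Per cell there were 2309 to 11371 transcripts.

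Genes were matched to GENCODE M21 by symbol (6113) or RefSeq synonym (206), and 38 were not matched. Sites, inclusion and Wilson 95% intervals were computed with Python 3.11.15, and Fisher's exact test with scipy 1.17.1. UMI families with read errors were not merged in the main counts. The grouping of blocks and the test of pairs recovered planted answers on simulated data, where the blocks of a pair were simply present or absent. Pooling of unlike cells, overlapping blocks in a pair and longer neighbours were not simulated. Named are sites with 5 or more transcripts (at most 25), members of a linked pair, annotated exons with 10 or more spanning transcripts and 10 to 90% inclusion, sites in microexon and myelin genes, the shortest and longest annotated exons, and sites at the limit; the annotated exons that were never seen, and the exons of Cltc, Nol7, Lgals8, Hnrnpc, Vps29, Tmeff1, Col4a5, Nsfl1c and Phb2, and the blocks of Ptn, Mia3, Skp2, Plat and Itm2b, were added after their values were seen. The sites, lists and rules were chosen with earlier results of these data known. The alternatives tried are given at the end. Cells have no stated animals, so intervals and p-values measure transcripts, not cells. Splice site bases and protein changes were not analysed here. Results for 2 genes are not reported here.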

Additional observations from a re-analysis of the deposited data

Results flagged for a closer look

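Transcripts that the authors assigned to 2 or more genes were not part of the counts above. Among these 356 transcripts, 9 internal blocks of 3 to 30 bp were found, in 7 of the 216 that had 3 or more blocks. Among the transcripts of 1 gene with 3 or more blocks, 890 of 17415 held such a block, so no excess was seen. One of the 7 transcripts, assigned to Mog and Zfp57 together, held all 3 short exons of Mog. The other 6 blocks were seen once each, at places named for Aph1a and Car14, Lss and 4930483K19Rik, Supt20 and Exosc8, Ifi27l2a and Ifi27, Mir719 and Nupl1, and 4930512B01Rik and Map4k5. The data were outside the main counts and no control samples exist for them.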

How the results depend on the processing

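The number of short sites, 422, was 177 with UMIs read 2 or more times, 237 with the reads of the earlier (short) run, 128 when 2 or more transcripts and 63 when 2 or more cells were required. The share at an annotated exon, 49.5%, was 67.8% with UMIs read 2 or more times, 56.1% with the reads of the later (long) run, 63.8% with a lower length limit of 6 bp, 82.0% with 2 or more transcripts and 92.1% with 2 or more cells. The share with a length that is a multiple of 3, 57.1%, moved beyond its interval only with an upper limit of 33 bp, where it was 52.1%. This share includes the 69 sites of 3 bp, which are multiples of 3 by their length and of which 1 was an annotated exon. With a lower limit of 6 bp it was 53.3%. Among unannotated sites over 6 bp it was 39.1% (45 of 115). The number of linked pairs, 24 of 46, was 1 of 4 with UMIs read 2 or more times, 10 of 35 with near-identical UMIs merged, 6 of 19 and 4 of 14 with the reads of the earlier and the later run, 64 of 138 with a minimum of 3 transcripts and 2 of 6 with 10. Without each cell in turn, the sites numbered 289 to 405, the annotated share was 49.4 to 52.2%, the share of multiples of 3 was 56.3 to 59.9%, and the linked pairs numbered 9 (without Oligo1-1) to 24, with 14 without Oligo5-2 and 15 without Oligo5-1. The other alternatives for these results moved no count by over 1.5 times and no share beyond its interval.

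For the inclusion of 20 named exons with 10 or more spanning transcripts, 228 of 256 values under all alternatives lay within the interval of the main value and 28 outside it. Of the 28, 10 came from counting skips alone as lacking the exon. This moved 10 of the 20 exons, among them those of Gas5 (56.5 to 100%) and 9630013A20Rik (26.9 to 87.5%). An exon's value cannot move when a cell without transcripts that span it is left out, so part of the 228 was fixed in advance. The alternative that counts a longer neighbour as holding the exon was chosen after seeing the data. No paired analysis was possible because the replicate numbers of the labels only name single cells of each type and no test compares the groups. Depth limits the inclusion of most exons, since 162 of 209 annotated ones had fewer than 5 spanning transcripts.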
